A study of Homo sapiens with 3 samples.

Results

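Solute carriers are the membrane proteins that move amino acids, sugars, ions, metals, vitamins and nucleosides into and out of cells and their organelles. The set described here held 113 solute carrier genes measured in the human gastric cancer line NCI-N87, an established cell line. They were the genes of the deposited table whose symbol has the form SLC, a family number, A and a member number, whose family is not SLC25, the mitochondrial carriers, and whose mean over the 3 libraries was at least 5 TPM. TPM is a transcript share that is corrected for length and scaled to the same total in every library, so levels can be set side by side between genes. Of 31907 rows in the table, 262 matched the form and 113 reached the level. Of the 149 that did not, 44 were listed at 0 in every library, 82 had a mean above 0 and under 1 TPM, and 23 had a mean of at least 1 and under 5 TPM. The lowest member was SLC7A2, with a mean of 5.38 TPM, and the gene just below the limit was SLC30A4, with 4.89 TPM. The level used all 3 libraries, so the members' presence is a choice and not a result.

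The study lowered FOXP4, a forkhead transcription factor, in gastric cancer cells, and its title also names YAP1. Every library came from NCI-N87 cells transfected with Lipofectamine 2000. The control was 1 library with a scrambled siRNA, whose genotype is labelled WT, and the knockdown group was 1 library with FOXP4 siRNA1 and 1 with FOXP4 siRNA2, labelled Knockdown. The siRNAs are different reagents, no label gives the time after transfection, and nothing states whether the libraries came from separate cultures, so any spread may be technical. Values given in threes are always in the order scrambled, siRNA1 and siRNA2, each from 1 library, and folds are differences of log2(TPM + 1) against the scrambled library.

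Solute carriers are grouped into numbered families by sequence, and a family mostly shares a kind of substrate. At the plasma membrane, exchangers and sodium-coupled carriers set which nutrients enter the cell, and proton, bicarbonate and lactate carriers set its pH. Others sit in the Golgi, the endoplasmic reticulum, endosomes or lysosomes, where they load zinc, nucleotide sugars or acetyl-CoA, or release the products of digestion. In the stomach, epithelial cells depend on ion and bicarbonate carriers for secretion and for protection from acid.

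Estimated depth was about 18100000, 18300000 and 18800000 reads, and the member with the fewest reads in a library had 38. FOXP4 itself measured 93.9, 51.6 and 36.7 TPM, so 54.97% and 39.02% of the control level were left, with folds of -0.85 and -1.33. With the trend on GC content removed, its folds were -0.20 and -1.02. The share of mitochondrially encoded mRNA was 5.15%, 8.05% and 1.41%, and the median fold over the 14427 genes averaging 1 TPM or more was 0.03 for siRNA1 and -0.24 for siRNA2. Epithelial markers were high, for example EPCAM at 1136, 1150.2 and 813 TPM and KRT8 at 1733, 1025 and 1929.9 TPM, although CDH1 measured only 4.16, 5.86 and 11.6 TPM. PTPRC was at most 0.052 TPM, and CD68, COL1A2, DCN and CDH5 were listed at 0, while the fibroblast markers COL1A1 and PDGFRA measured 13.1, 6.42 and 22.3 TPM and 84.8, 141 and 65.6 TPM. VWF was at most 0.083 TPM. The part of these markers in the carriers' values was not tested. In bulk RNA, fewer cells that express a gene and less RNA per cell cannot be told apart.

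The members made up 10128, 10361 and 12007 TPM in the 3 libraries, spread over 39 families. The 8 most abundant were SLC1A5, SLC2A1, SLC38A2, SLC16A1, SLC7A5, SLC3A2, SLC39A1 and SLC38A1, and together they held 46.3%, 49% and 54.9% of that sum. Of the 113, 20 averaged 100 TPM or more. The summed level was highest with siRNA2, in which SLC38A2 alone measured 1468 TPM.

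Ranked by the smaller of their folds, the carriers furthest above the control were SLC38A2 and SLC7A11, and the one furthest below was SLC39A3. SLC38A2 brings small neutral amino acids such as alanine and glutamine into the cell with sodium, SLC7A11 imports cystine in exchange for glutamate, and SLC39A3 takes up zinc. At least 2-fold higher with both siRNAs were 2 of 113 members (1.77%), where 2.25% of the 10701 genes averaging 5 TPM or more were. At least 2-fold lower with both was 1 member (0.885%), against 1.77% of those genes. Both shares lay near or below those of all genes, so the set as a whole did not hold more large differences. limma, which fits the same model to every gene, called 0 of 14427 genes at an adjusted p under 0.05 (0%), and no member. At an unadjusted p under 0.05 it had 428 of 14427 genes and 2 of 113 members, SLC38A2 and SLC7A11. The members' share was the smaller of these. The differences below are therefore those between these 3 libraries.

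Of the 113 members, 21 (18.6%) were higher with both siRNAs at any size and 48 (42.5%) were lower with both, where 24.9% and 38.4% of genes at that level were. The other 44 were split: 23 were higher with siRNA1 and lower with siRNA2, and 21 the reverse. The balance turned with the processing: 28 were higher and 32 lower with both under median-of-ratios scaling, and 40 and 37 with the GC trend removed. Of the folds of members named by rule, 20 of 82 changed sign with that trend removed. Both folds share the scrambled library. The median fold of the members was -0.16 with siRNA1 and -0.17 with siRNA2, against 0.03 and -0.23 over all genes at that level. When the libraries were rescaled by median of ratios, which put the median of all genes with siRNA2 at 0.00, the members' median with siRNA2 was 0.11. The sign of the siRNA2 median thus turns with the scaling.

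**Figure D1:**
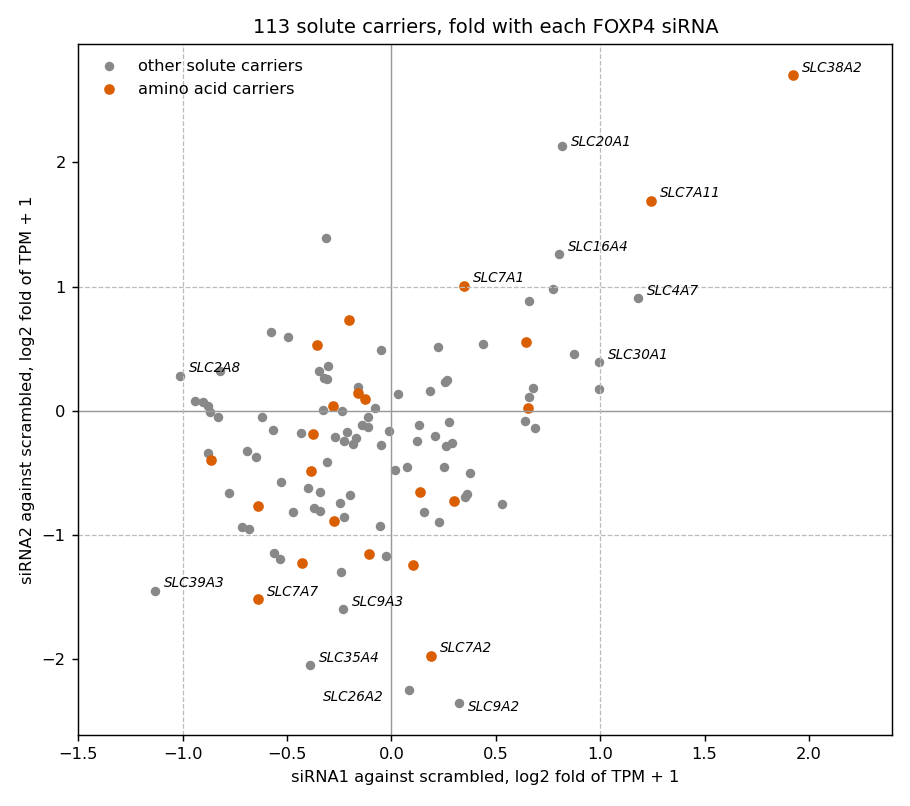
Log2 fold of TPM + 1 against the scrambled library with siRNA1 (x axis) and siRNA2 (y axis), 1 point for each of the 113 solute carriers, amino acid carriers in orange; dashed lines mark 2-fold. SLC38A2 and SLC7A11 lie above 1 on both axes, SLC39A3 lies below -1 on both, and SLC9A2, SLC26A2 and SLC35A4 lie below -2 with siRNA2 while their siRNA1 folds are between -0.39 and 0.32.

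SLC38A2 (ENSG00000134294.13, chromosome 12, 46358189 to 46372867, minus strand, GENCODE 29 on GRCh38) measured 225, 857 and 1468 TPM. Both siRNA libraries were above the control, by 3.81 and 6.53 times, and the siRNA2 library was the highest. Its folds were 1.93 and 2.70, a mean of 2.31 ± 0.55 (SD, n = 2), and 1.45 and 2.81 with the GC trend removed. In a limma fit over the 9127 genes averaging 10 TPM or more, 93 genes were called (1.02%) and SLC38A2 was the 1 member among them, with an adjusted p of 0.0302. In that fit the prior degrees of freedom were infinite, so the gene's own spread between siRNAs did not enter. Over the limma settings tried, its adjusted p ran from 0.0302 to 0.9999.

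SLC7A11 (ENSG00000151012.13, chromosome 4, 138164097 to 138242349, minus strand) measured 71.7, 171 and 234 TPM. Its cystine supply feeds glutathione synthesis. The folds were 1.24 and 1.69 (mean 1.47 ± 0.32 (SD, n = 2)), and 0.70 and 1.77 with the GC trend removed, so the siRNA1 value then lay under 2-fold. Over the limma settings its adjusted p was between 0.4067 and 0.9999. SLC39A3 (ENSG00000141873.10, chromosome 19, 2732204 to 2740152, minus strand) measured 18.2, 7.76 and 6.07 TPM. Both siRNA libraries were below the control. The folds were -1.13 and -1.45 (mean -1.29 ± 0.22 (SD, n = 2)), and -0.74 and -1.14 after GC removal.

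The upstream sequences of some members with large differences are shown so that the letters before their starts can be read beside the levels. They come from the RefSeq promoter table on GRCh38.p14, 5′ to 3′ on the gene's strand, cut to the stretch that no GENCODE exon overlaps, with any motif letters in capitals. The table matched 90 of the 113 members by symbol, with 150 starts, and SLC7A11 was not among them. SLC9A2, which had the lowest siRNA2 fold, was matched but is not shown. SLC38A1, the neighbour of SLC38A2 on the same strand, is shown beside it because the pair share a family and differ in fold.

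SLC38A2, chr12:46372868-46373023, minus strand, bases 250 to 95 before the start, 73.7% GC: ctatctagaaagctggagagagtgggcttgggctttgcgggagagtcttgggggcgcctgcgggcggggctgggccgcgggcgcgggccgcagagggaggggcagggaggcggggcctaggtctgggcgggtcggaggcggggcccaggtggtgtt
SLC38A1, chr12:46266517-46266766, minus strand, 1 of its 2 starts, bases 250 to 1 before it, 42.4% GC: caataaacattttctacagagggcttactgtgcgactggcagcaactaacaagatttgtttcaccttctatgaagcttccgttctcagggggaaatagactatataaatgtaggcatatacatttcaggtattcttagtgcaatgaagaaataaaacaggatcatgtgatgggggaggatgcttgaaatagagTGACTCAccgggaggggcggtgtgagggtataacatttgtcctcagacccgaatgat
SLC20A1, chr2:112645691-112645856, plus strand, bases 248 to 83 before the start, 80.1% GC: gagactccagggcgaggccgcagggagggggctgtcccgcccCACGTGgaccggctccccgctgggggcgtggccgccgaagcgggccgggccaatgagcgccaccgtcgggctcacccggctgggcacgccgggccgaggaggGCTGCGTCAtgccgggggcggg
SLC39A3, chr19:2740153-2740326, minus strand, bases 250 to 77 before the start, 67.2% GC: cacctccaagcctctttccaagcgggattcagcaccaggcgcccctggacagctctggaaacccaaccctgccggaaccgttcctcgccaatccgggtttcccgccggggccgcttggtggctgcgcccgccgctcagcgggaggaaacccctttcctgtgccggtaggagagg
SLC26A2, chr5:149960508-149960736, plus strand, bases 250 to 22 before the start, 64.2% GC: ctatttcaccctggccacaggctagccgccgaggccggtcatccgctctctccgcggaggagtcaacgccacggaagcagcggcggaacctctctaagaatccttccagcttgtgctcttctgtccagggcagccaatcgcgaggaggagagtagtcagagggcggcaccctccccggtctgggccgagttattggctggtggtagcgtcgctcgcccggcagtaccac

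Capitals mark an AP-1 motif at base 57 before the shown SLC38A1 start, and an E-box at base 206 and an antioxidant response element (ARE) at base 104 before the SLC20A1 start. Short motifs were searched on both strands of the 250 bases before each start: the amino acid response element called CARE (TGATGNAA), AP-1 (TGANTCA), ARE (TGACNNNGC), forkhead (TGTTTAC), E-box (CACGTG) and the metal response element MRE (TGCACNC). AP-1 and ARE can overlap. The stretches printed for SLC38A2, SLC39A3 and SLC26A2 hold none of them. The window of SLC26A2 has an E-box in the bases next to the start that are not printed. The other SLC38A1 start, which is not printed, has none of the motifs in its window. CARE was in 1.33% of the members' promoters and 3.14% of all 35116, AP-1 in 8% and 6.57%, ARE in 13.3% and 10.9%. Forkhead letters were in 2% of the members' promoters (SLC1A5, SLC30A9 and SLC43A1) and in 2.98% of all, E-box letters in 10.7% and 6.34%, and MRE letters in 9.33% and 9.87%. A match is a description of the letters only, and no match says only that these letters are not in the window.

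Amino acid carriers were the largest class together with metal carriers, with 22 members each. In the amino acid class 5 were higher with both siRNAs and 8 lower with both (10 and 8 with the GC trend removed), the medians were -0.14 and -0.29, and the class held both of the members at least 2-fold higher. Its abundant members supply glutamine and essential amino acids. SLC1A5, a sodium-dependent exchanger of glutamine and other neutral amino acids, was the most abundant carrier of the set and measured 1043, 813 and 1503 TPM, lower with siRNA1 and higher with siRNA2. With the GC trend removed both folds were positive, at 0.20 and 0.84. SLC7A5, the leucine and large neutral amino acid exchanger, measured 867, 667 and 762 TPM, with the control the highest, and its folds were -0.38 and -0.19, or 0.17 and 0.12 after GC removal.

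SLC7A5 and its relatives SLC7A6, SLC7A7, SLC7A8 and SLC7A11 are light chains that reach the membrane bound to the heavy chain SLC3A2. SLC3A2 measured 398, 346 and 663 TPM, and the summed light chains were 2.79, 2.76 and 1.60 times that level. Within the sum the make-up differed. SLC7A11 made up 6.47%, 17.98% and 22.2% of the light chain TPM. SLC7A7, which exports cationic amino acids, measured 126, 80.3 and 43.3 TPM, and SLC7A8, a neutral amino acid exchanger, 36.7, 27.1 and 15.1 TPM. Both were lower with each siRNA, with folds of -0.64 and -1.51 and of -0.43 and -1.23.

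SLC7A7 and SLC7A8 lie 295.5 kb apart on chromosome 14. SLC7A6, at 7.22, 6.63 and 2.70 TPM, shares 44.4% of its exon bases with SLC7A6OS on the other strand, and whether reads were counted by strand is not given in the sources used here. The cationic amino acid carriers SLC7A1 and SLC7A2 stood on opposite sides of the control with siRNA2. SLC7A1, the ubiquitous arginine and lysine carrier, measured 175, 223 and 354 TPM, with folds of 0.35 and 1.01. SLC7A2 measured 6.99, 8.11 and 1.04 TPM, so only the siRNA2 library was far from the control, at a fold of -1.97.

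**Figure D2:**
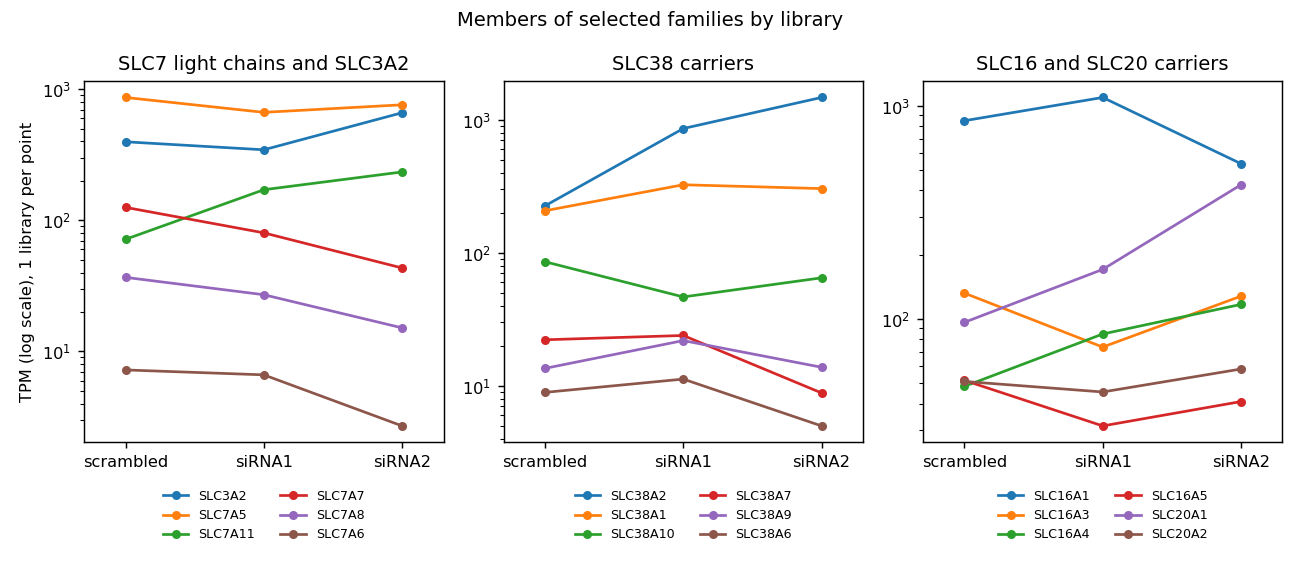
TPM (log scale) by library for the SLC7 light chains with SLC3A2, the SLC38 carriers and the SLC16 and SLC20 carriers, 1 point per library joined by lines for each gene. SLC7A11 and SLC38A2 are above their control in both siRNA libraries, SLC7A7 and SLC7A8 are below it in both, and SLC20A1 is highest in the siRNA2 library.

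The SLC38 family of neutral amino acid carriers had 6 members, of which 3 were higher with both siRNAs and 1 was lower, or 3 and 2 with the GC trend removed. SLC38A1, 88.2 kb from SLC38A2 on chromosome 12, measured 207, 324 and 303 TPM, with folds of 0.65 and 0.55. The ratio of SLC38A2 to SLC38A1 was 1.09, 2.65 and 4.84. SLC38A9, a lysosomal sensor of arginine for the mTORC1 kinase, measured 13.5, 21.8 and 13.8 TPM, and SLC38A7, the lysosomal glutamine carrier, 22.2, 23.9 and 8.83 TPM. SLC38A10 measured 85.5, 46.5 and 64.7 TPM and SLC38A6 8.92, 11.2 and 4.99 TPM, and only SLC38A10 was below the control in both siRNA libraries.

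The other amino acid carriers were all within 2-fold of the control with each siRNA. SLC1A4, a relative of SLC1A5, measured 45.3, 49.9 and 28.4 TPM, and the glutamate carrier SLC1A3 measured 19.5, 12.1 and 11.1 TPM, below the control in both. SLC6A6, the taurine carrier, measured 46.8, 38.5 and 24.9 TPM. SLC6A9, a glycine carrier, measured 78.2, 59.7 and 55.8 TPM. Both SLC6 genes were below the control in each siRNA library, though SLC6A9 had a siRNA1 fold of 0.09 with the GC trend removed. The large neutral amino acid carriers SLC43A1 and SLC43A2 and the lysosomal SLC36A1 had folds between -0.28 and 0.14.

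Genes that cells switch on when amino acids run short were counted beside these carriers, since SLC38A2 and SLC7A11 are known targets of that response. Of the 22 amino acid carriers, 5 were higher with both siRNAs and 8 lower with both. The part of that response in the level of any carrier was not tested. Of 15 listed genes 12 averaged 1 TPM or more. Over the 14427 genes at that level, 24.55% were higher with both siRNAs and 38.07% were lower with both. The list was chosen with earlier results of these data known. Of its 12 genes, 10 were higher with both siRNAs and none was lower with both, with medians of 0.34 and 0.90. None was at least 2-fold higher with both, and limma called 0 (none at an unadjusted p under 0.05). SESN2 measured 163, 315 and 963 TPM and TRIB3 728, 942 and 1458 TPM. ATF4, the factor that drives the response, measured 1131, 1081 and 1486 TPM, and PSAT1, the most abundant of the list, 1808, 1589 and 2073 TPM. The last pair were below the control with siRNA1 and above it with siRNA2. With the GC trend removed ATF4 was above it with both, at folds of 0.27 and 0.70, and PSAT1 stayed split, at -0.51 and 0.38. Another listed gene that had been higher with both was then split.

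**Figure D3:**
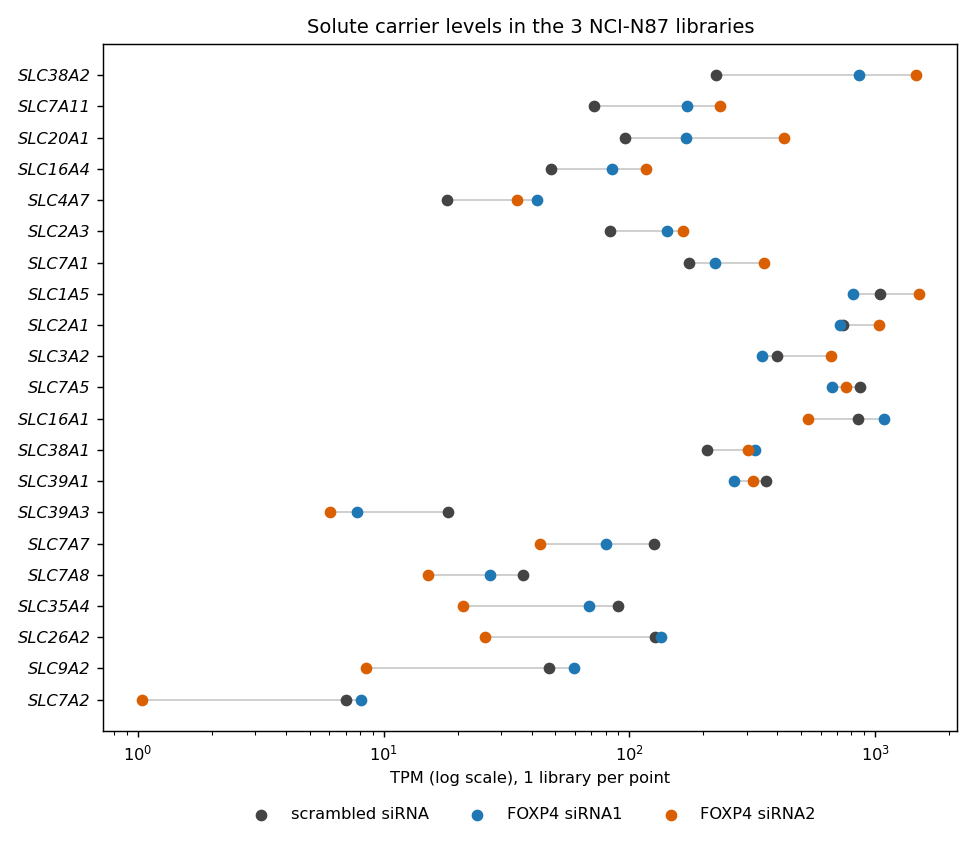
TPM (log scale) of 21 solute carriers in the 3 libraries, 1 point per library. SLC38A2 spans 225 to 1468 TPM with the control lowest, SLC39A3 spans 6.07 to 18.2 TPM with the control highest, and SLC26A2 and SLC9A2 have the siRNA2 library far to the left of the other two.

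Sugar and sugar phosphate carriers had 12 members, 2 higher and 5 lower with both siRNAs, with medians of -0.21 and 0.01. With the GC trend removed they were 5 and 3, with medians of 0.07 and 0.30. SLC2A1, the main glucose carrier of these cells by level, measured 742, 717 and 1041 TPM. SLC2A3, the high-affinity glucose carrier, measured 82.99, 143 and 165 TPM, with folds of 0.78 and 0.98, and was above the control in both. SLC2A3 has the near-identical copy SLC2A14, so how its reads were assigned is uncertain. The ratio of SLC2A3 to SLC2A1 was 0.112, 0.199 and 0.158. With the GC trend removed, the folds were 0.62 and 1.19 for SLC2A3 and 0.20 and 0.79 for SLC2A1. SLC2A8, an intracellular hexose carrier, measured 54.6, 26.5 and 66.8 TPM and so parted between the siRNAs.

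SLC50A1, a sugar efflux carrier, was abundant at 155, 140.4 and 143 TPM. SLC37A4, which takes glucose 6-phosphate into the endoplasmic reticulum, measured 13.9, 10.8 and 8.51 TPM. SLC5A6, the sodium-dependent carrier of biotin and pantothenate, measured 43.1, 36.6 and 23.4 TPM. It was counted with the sugar carriers by its family number. Both SLC37A4 and SLC5A6 were below the control in each siRNA library, though SLC5A6 had a siRNA1 fold of 0.07 after GC removal. SLC5A3, the myo-inositol carrier, and SLC2A10 were also lower with both, and SLC37A1 was higher with both by 0.03 and 0.14. SLC45A3 and SLC45A4, putative sugar and proton carriers, measured 25.1, 19.9 and 30.3 TPM and 9.35, 7.35 and 11.4 TPM, lower with siRNA1 and higher with siRNA2, but higher with both after GC removal.

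Of 8 genes of glucose use, 4 were higher and 1 lower with both siRNAs. Over all genes averaging 1 TPM or more, the shares were 24.55% and 38.07%. TXNIP, which restrains glucose uptake and is induced by glucose, measured 307, 1832 and 2397 TPM, with folds of 2.58 and 2.96, and was the 1 gene of the list at least 2-fold from the control with both. LDHA, which makes lactate, measured 369.8, 174 and 197 TPM. It was the 1 gene of the list lower with both. limma called none of the 8, and 1 had an unadjusted p under 0.05.

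Monocarboxylate and peptide carriers numbered 6, with medians of -0.17 and -0.19, or 0.08 and 0.13 with the GC trend removed. SLC16A1, the proton-coupled carrier of lactate and pyruvate, measured 849, 1091 and 534 TPM, above the control with siRNA1 and below it with siRNA2. SLC16A3, the carrier that exports lactate from glycolytic cells, measured 132, 73.6 and 128 TPM, so the ratio of SLC16A1 to SLC16A3 was 6.44, 14.8 and 4.18. BSG, the partner that brings both to the membrane, measured 935, 590.1 and 859.6 TPM. With the GC trend removed, the folds were 0.10 and -0.47 for SLC16A1, -0.19 and 0.27 for SLC16A3, and -0.08 and 0.19 for BSG. On those folds the ratio rises less with siRNA1. SLC16A4 measured 48.2, 84.8 and 117 TPM, above the control in both, with folds of 0.80 and 1.26, or 0.42 and 1.41 with the GC trend removed. SLC16A13 and SLC16A5 were below the control in both, but SLC16A13 had a siRNA1 fold of 0.07 with the GC trend removed. SLC15A4, a lysosomal peptide and histidine carrier, measured 30.96, 35.3 and 34.7 TPM.

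The phosphate carriers SLC20A1 and SLC20A2 bring phosphate in with sodium. SLC20A1 (ENSG00000144136.10, chromosome 2, 112645857 to 112663827, plus strand) measured 96.2, 170.3 and 425 TPM, above the control in both libraries and highest with siRNA2. Its folds were 0.82 and 2.13, so it missed the 2-fold rule only with siRNA1, and its mean was 1.47 ± 0.93 (SD, n = 2). SLC20A2 measured 50.8, 45.3 and 58.1 TPM, and the ratio of SLC20A1 to SLC20A2 was 1.89, 3.76 and 7.32.

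Bicarbonate, chloride and other anion carriers had 13 members, 3 higher and 4 lower with both siRNAs, but 5 and 2 under median-of-ratios scaling and 7 and 4 with the GC trend removed. SLC4A7, a sodium bicarbonate cotransporter that raises the pH of the cell, measured 18.1, 42.2 and 34.7 TPM. Its folds were 1.18 and 0.91, or 0.68 and 1.00 with the GC trend removed, and it passed 2-fold with both under median-of-ratios or quantile scaling. SLC4A2, which exchanges chloride for bicarbonate and serves acid secretion in the stomach, measured 75.9, 50.8 and 68.1 TPM, and SLC4A4, another sodium bicarbonate cotransporter, 8.08, 13.2 and 7.56 TPM. SLC4A11 measured 45.8, 28.2 and 23.2 TPM and was below the control in both.

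Among the cation chloride cotransporters, SLC12A2, which brings sodium, potassium and chloride in, was the most abundant at 214, 248 and 186 TPM. The potassium chloride exporters SLC12A4 and SLC12A7 measured 38.1, 26.7 and 57.99 TPM and 42.99, 33.6 and 53.9 TPM. Both were lower with siRNA1 and higher with siRNA2, but higher with both after GC removal. SLC12A8 measured 14.8, 18.04 and 17.8 TPM and SLC12A9 26.8, 13.9 and 28.1 TPM. No SLC12 member was below the control in both, though 1 was with the GC trend removed.

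SLC26A2, a sulfate carrier whose substrate is needed for sulfated proteoglycans (ENSG00000155850.7, chromosome 5, 149960737 to 149993455, plus strand), measured 127, 135 and 25.9 TPM. The control and siRNA1 libraries lay together and the siRNA2 library was far below, with folds of 0.09 and -2.25. SLC26A6, an anion exchanger, measured 14.9, 9.75 and 6.16 TPM, and SLC26A1 6.28, 5.73 and 6.03 TPM. SLC26A1 shares 12.4% of its exon bases with IDUA.

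Sodium proton exchangers had 6 members, none higher with both siRNAs, though 2 were with the GC trend removed. SLC9A2, an epithelial exchanger, measured 47.3, 59.3 and 8.44 TPM, with folds of 0.32 and -2.35, so the siRNA2 library stood apart. SLC9A3, the apical exchanger of absorptive epithelium, measured 10, 8.36 and 2.64 TPM, but it shares 41.9% of its exon bases with PP7080 and 14.9% with EXOC3. The endosomal and Golgi exchangers SLC9A7 and SLC9A8 had folds between -0.24 and 0.02.

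Among genes of gastric ion transport and of the sodium pump, which sets the gradient that many carriers use, none was at least 2-fold from the control in the same direction with both siRNAs. Of 7 gastric ion genes averaging 1 TPM or more, 1 was higher and 2 lower with both siRNAs. Of 5 sodium pump genes 2 were higher and 1 lower. Over all genes at that level, the shares were 24.55% and 38.07%. AQP3, a water and glycerol channel, measured 278, 372 and 580.2 TPM, and ATP1B1, the most abundant pump subunit, 1265, 1686 and 1301 TPM. limma called none of either list, and none had an unadjusted p under 0.05.

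Metal carriers had 22 members, 4 higher and 11 lower with both siRNAs, with medians of -0.10 and -0.25. Among them 10 were SLC39 carriers, which bring zinc and other metals into the cytosol, and 7 of them were lower and 1 higher with both. Under median-of-ratios scaling those counts were 5 and 3, and with the GC trend removed 5 and 0. For all 22 metal carriers, median-of-ratios scaling gave 8 higher and 8 lower. SLC39A1, the most abundant, measured 359, 266 and 318 TPM, SLC39A14, which also takes up iron and manganese, 281, 238 and 280.3 TPM, and SLC39A7, which releases zinc from the endoplasmic reticulum, 225, 196 and 140.3 TPM. SLC39A4, the zinc carrier of the gut, measured 35.4, 18.8 and 27.8 TPM.

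The other SLC39 carriers were moderate in level. SLC39A10 and SLC39A6, relatives of each other, measured 182, 198 and 154 TPM and 41.1, 49.2 and 48.4 TPM, and SLC39A6 was the 1 family member above the control with both siRNAs. SLC39A9, SLC39A11 and SLC39A13 measured 90.5, 111 and 75.6 TPM, 16.1, 13.4 and 9.24 TPM and 29.3, 18.3 and 22.5 TPM. SLC39A11 and SLC39A13 were below the control in both, and SLC39A9 was above it with siRNA1 only. The magnesium carriers differed among themselves: SLC41A1 measured 43.8, 38.9 and 37.5 TPM, SLC41A2 20.8, 33.4 and 22.6 TPM and SLC41A3 23.9, 18.9 and 23.96 TPM.

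The 5 SLC30 carriers, which move zinc out of the cytosol, had 2 members higher and none lower with both, whereas 1 was higher and 2 lower with the GC trend removed. SLC30A1, the zinc exporter of the plasma membrane, measured 44.4, 89.4 and 58.5 TPM, with folds of 1.00 and 0.39, or 0.52 and 0.50 with the GC trend removed. SLC30A7, which loads zinc into the Golgi, measured 23.8, 27.9 and 34.5 TPM. SLC30A5 and SLC30A6, which do so as a pair, measured 32.8, 39.9 and 30.7 TPM and 39.6, 50.9 and 24.2 TPM. In the zinc list 3 genes averaged 1 TPM or more, 2 higher and 1 lower with both siRNAs. Over all genes at that level, 24.55% were higher with both and 38.07% lower. MT2A, a metallothionein, measured 21.9, 37.5 and 63.96 TPM, and MTF1, the zinc-sensing factor, 12.3, 28.2 and 15.6 TPM. The 1 lower with both was MT1F, another metallothionein, at 4.95, 3.25 and 1.94 TPM.

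Iron, copper and heme each have their own carriers. SLC40A1, the only known iron exporter, measured 43.96, 43.2 and 19.04 TPM, and SLC11A2, which brings iron in, 30.97, 34.1 and 28.6 TPM. SLC31A1, the copper importer, measured 85.6, 58.9 and 36.9 TPM, and SLC48A1, a heme carrier, 38.2, 27.3 and 21.3 TPM. SLC31A1 and SLC48A1 were below the control in both siRNA libraries, and SLC40A1 was far from it only with siRNA2. Of 9 iron genes, 2 were higher and 4 lower with both, where 24.55% and 38.07% of genes averaging 1 TPM or more were. FTL, a ferritin subunit and the most abundant of the 9, measured 22494, 13620.0 and 19428 TPM.

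**Figure D4:**
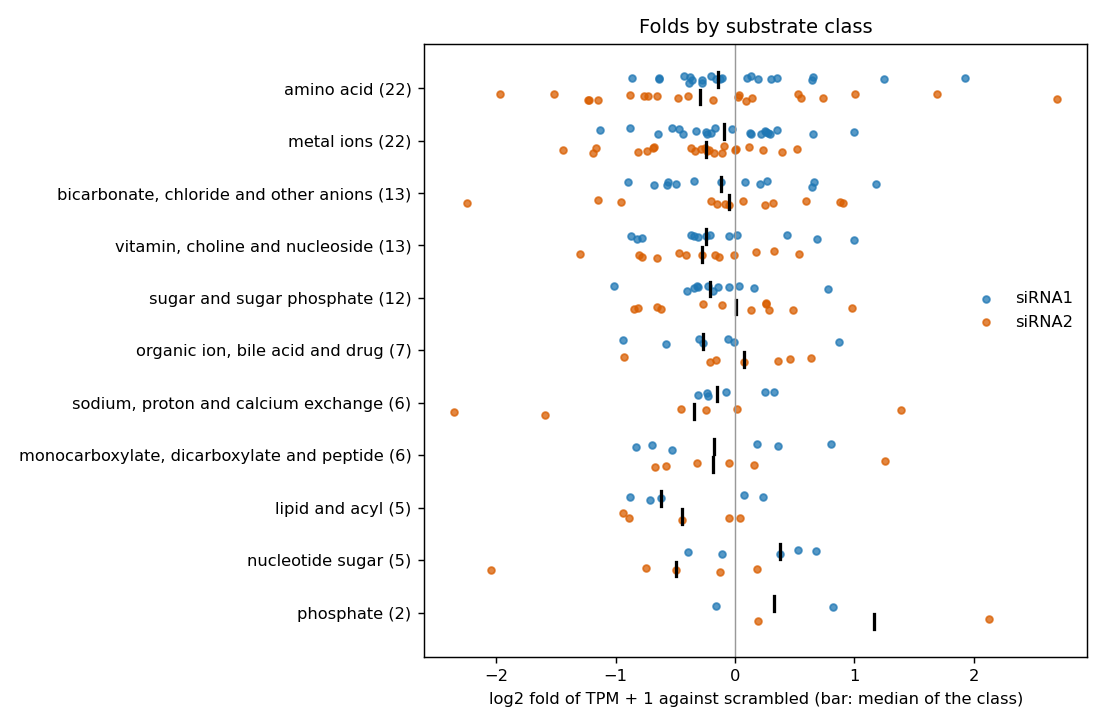
Log2 fold of TPM + 1 against the scrambled library for the members of 11 substrate classes, blue for siRNA1 and orange for siRNA2, with the number of members in parentheses and black bars at the class medians. Classes overlap widely, the amino acid class spans -1.97 to 2.70 with siRNA2, and the nucleotide sugar medians are 0.38 with siRNA1, or 0.02 with the GC trend removed, and -0.50 with siRNA2.

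Nucleotide sugar carriers feed the glycosylation enzymes of the Golgi. The 5 members had medians of 0.38 and -0.50, which were 0.02 and -0.38 with the GC trend removed and 0.37 and -0.23 under median-of-ratios scaling. SLC35A2, the UDP-galactose carrier, measured 69.95, 64.7 and 63.9 TPM, SLC35A1, which carries CMP-sialic acid, 17.7, 28.8 and 20.2 TPM, and SLC35A3, a UDP-N-acetylglucosamine carrier, 19.2, 28.1 and 11.03 TPM. SLC35A4 (ENSG00000176087.14, chromosome 5, 140564456 to 140569103, plus strand) measured 90.1, 68.5 and 21.03 TPM, with folds of -0.39 and -2.05, so only the siRNA2 library was more than 2-fold below the control. SLC35A4 shares 7.83% of its exon bases with APBB3.

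Over all classes, 31 members were listed as carriers of organelles and 82 as carriers of the plasma membrane or unlisted. The organelle carriers had medians of 0.10 and -0.26 and the others -0.23 and -0.16. With the GC trend removed these were -0.01 and -0.05 against 0.00 and 0.13. SLC33A1, which takes acetyl-CoA into the endoplasmic reticulum, measured 17.9, 21.2 and 9.19 TPM, and SLC17A5, the sialic acid exporter of lysosomes, 84.7, 84.003 and 75.5 TPM. SLC17A9, which fills vesicles with ATP, measured 21.2, 13.9 and 33.4 TPM.

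Vitamin, choline and nucleoside carriers had 13 members, 2 higher and 8 lower with both siRNAs, or 5 and 5 with the GC trend removed. The choline carrier-like SLC44A2 was the most abundant at 211, 163 and 122 TPM, and SLC44A1, a choline carrier, measured 66.9, 67.7 and 47.9 TPM. SLC29A1, the main equilibrative nucleoside carrier, measured 53.2, 30.6 and 33.3 TPM, the lysosomal SLC29A3 13.5, 11.3 and 4.90 TPM, and SLC29A2, the second plasma membrane form, 50.6, 43.5 and 44.98 TPM. All 3 SLC29 members were below the control in both, under median-of-ratios scaling 2 of them were, and with the GC trend removed 1 was.

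SLC23A2, the ascorbate carrier, measured 68.1, 92.6 and 99.2 TPM and was above the control in both. SLC28A3, a concentrative nucleoside carrier, measured 4.07, 9.11 and 4.73 TPM. SLC19A2, a thiamine carrier, measured 61.7, 100.2 and 56.1 TPM, and SLC19A1, the reduced folate carrier, 17.2, 8.96 and 17.1 TPM. SLC52A2, a riboflavin carrier, measured 75.7, 42.5 and 94.9 TPM, but 34.7% of its exon bases lie on FBXL6. SLC46A1, the proton-coupled folate carrier, measured 14.04, 10.9 and 7.60 TPM and shares 56.4% of its exon bases with SARM1.

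The fatty acid carriers SLC27A1 to SLC27A4 measured 8.22, 52.99, 12.3 and 145 TPM in the control. SLC27A4, the most abundant, measured 145, 78.3 and 149 TPM, and SLC27A3 12.3, 7.10 and 5.96 TPM. SLC27A3 was below the control in both, whereas SLC27A4 was so only with siRNA1. In the organic ion class, SLC22A5, which brings carnitine in, measured 8.26, 7.90 and 3.86 TPM, SLC22A18 26.9, 13.5 and 28.5 TPM and SLC10A7 4.77, 9.55 and 6.94 TPM. SLC10A7 was the 1 member of that class of 7 above the control with both siRNAs, and 3 were below it with both. With the GC trend removed, 4 were above it with both and 1 was below it.

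The siRNA libraries also differed from each other. Against the control alone, siRNA1 had 3 members at least 2-fold higher (2.65%) and 2 lower (1.77%), where 4.07% and 4.6% of genes averaging 5 TPM or more were. With siRNA2 there were 6 higher (5.31%) and 14 lower (12.4%), where 6.43% and 11.8% were. Between the siRNAs, 7 members (6.19%) were at least 2-fold higher with siRNA2, against 5.09% of genes. Among them were SLC20A1, SLC52A2, SLC2A8 and SLC17A9. Lower by that size with siRNA2 than with siRNA1 were 14 members (12.4%), against 11.2% of genes, led by SLC9A2, SLC26A2, SLC7A2, SLC35A4 and SLC9A3. With siRNA1 alone the members' shares were below those of all genes in both directions, and in the other counts they lay close to them.

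The siRNA1 folds ran with the base composition of the transcripts. Over the 113 members the Spearman correlation of the siRNA1 fold with the GC content of the longest transcript was -0.80, and that of the siRNA2 fold was 0.01, as a description across genes of the same libraries. Of 39 members under 45% GC, 33 were above the control with siRNA1, and of 47 over 55% GC, 45 were below it. The medians of those groups were 0.30 and -0.38 with siRNA1 and -0.16 and -0.17 with siRNA2. Over 8578 genes the correlations were -0.68 and -0.11, so the trend was not particular to the carriers, and its part in any 1 gene was not tested. With the trend removed the correlation over the members was 0.02 for siRNA1, the median folds were -0.01 and 0.06, and SLC38A2 was the 1 member at least 2-fold higher with both.

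**Figure D5:**
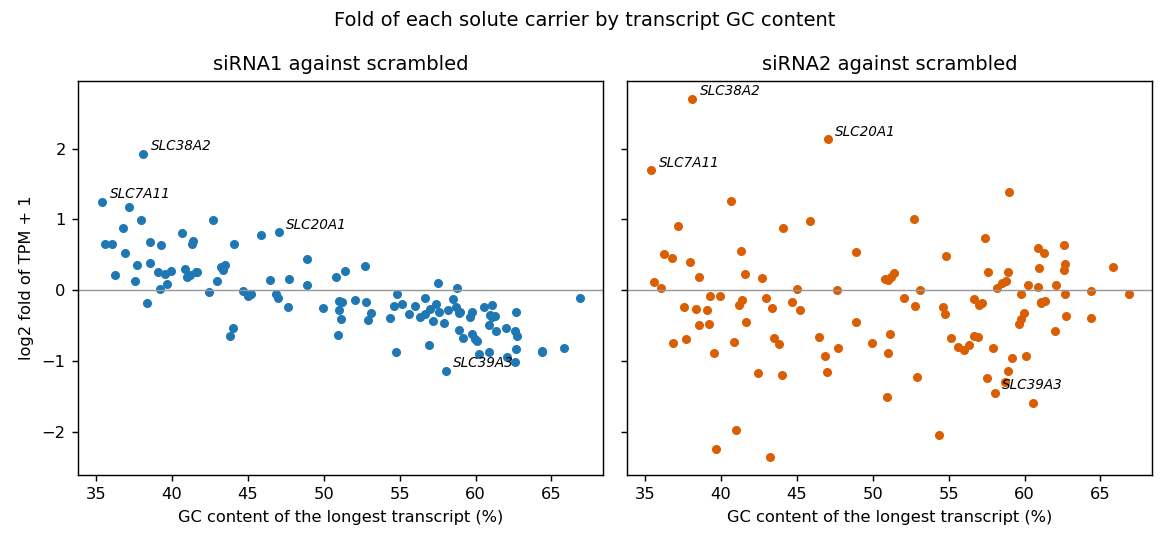
Log2 fold of TPM + 1 against GC content of the longest transcript (%), 1 point for each of the 113 solute carriers, siRNA1 on the left and siRNA2 on the right. The siRNA1 points fall from left to right, with a Spearman correlation of -0.80, and the siRNA2 points have a correlation of 0.01.

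Other transporter genes were counted as a yardstick. The 31 mitochondrial SLC25 carriers had medians of -0.02 and -0.37, the 19 ABC transporters -0.23 and -0.25, and the 14 ion-pump ATPases 0.11 and -0.03, beside -0.16 and -0.17 for the solute carriers. None of these groups had a member at least 2-fold higher with both siRNAs, and the SLC25 carriers had 1 that was lower. Of 10 organic anion carriers of the SLCO family, 4 averaged 1 TPM or more, and SLCO1B3, a carrier of bile acids and drugs, measured 7.26, 21.6 and 18.7 TPM, at least 2-fold above the control with both. Of 5 accessory proteins, 1 was higher and 3 lower with both, where 24.55% and 38.07% of genes averaging 1 TPM or more were.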

How the data were processed

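Poly(A) RNA of 3 transfected NCI-N87 libraries was sequenced, per the labels' protocols. The authors deposited 1 table of TPM, a length-corrected transcript share, on GRCh38 per the submitters' processing notes. The aligner, the quantification tool, the annotation and the use of strand are not given in the sources used here. Each library's TPM sums to a fixed total, so a gain in some genes lowers others. Depth was estimated from low TPM values, which step by whole reads: 92.98%, 92.5% and 92.8% of them lay within 0.1 of a whole number, where chance gives 20%.

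Genes averaging 1 TPM or more were compared as log2(TPM + 1) in R 4.3.3 with limma 3.58.1, using a mean-variance trend and Benjamini-Hochberg adjustment over 14427 genes. With 2 siRNA libraries against 1 control there was 1 residual degree of freedom, and the lone control was assumed to vary like the siRNA libraries. The 4 rows sharing date-like names were left out. The code was tested on simulated data. Beside it stood a rule of size, 2-fold in the same direction with both siRNAs, counted over the 10701 genes averaging 5 TPM or more.

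Positions and GC content came from GENCODE 29, matched by symbol for 113 of 113 members. The GC trend was removed with a lowess curve (span 0.3) fitted to nuclear genes averaging 10 TPM or more. Genes were named by this rule: the 8 most abundant members, those at least 2-fold from the control with both siRNAs, the 6 furthest apart each way between siRNAs, and the most abundant and most extreme of each class; other members were added after their values were seen, to fill out each family. Of partner lists, the most abundant gene and those 2-fold with both were named by rule. SESN2, TRIB3, ATF4, LDHA, MTF1, MT1F and MT2A were added afterwards. Values of a few genes are not reported here. Members and lists were chosen with earlier results of these data known. Alternatives covered the pseudocount, the filter, the scaling, mitochondrially encoded genes, GC content, the fold limit and each siRNA left out.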

Additional observations from a re-analysis of the deposited data

How the results depend on the processing

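The control has no replicate, so a shift of that 1 library would move every fold. No paired analysis was possible because there was only 1 control library. limma called 1 member with a filter at a mean of 10 TPM and 0 under the other 8 alternatives, in which it called 0 to 58 genes. Members at least 2-fold higher with both siRNAs numbered 1 with the GC trend removed, 7 at a 1.5-fold limit, and 3 without siRNA2 to 6 without siRNA1. Lower with both were 0 with a pseudocount of 5 or the GC trend removed, 6 at 1.5-fold, and 2 without siRNA2 to 14 without siRNA1. The siRNA1 median was -0.139 with a pseudocount of 5, -0.172 under median of ratios, -0.0994 without mitochondrially encoded genes and -0.00518 with the GC trend removed. The siRNA2 median was 0.105 under median of ratios, -0.0468 under quantile normalization, -0.242 without mitochondrially encoded genes and 0.0627 with the GC trend removed. Members 2-fold higher with siRNA2 than siRNA1 numbered 14 under median of ratios, 4 with the GC trend removed and 17 at 1.5-fold. Those lower numbered 8 with a pseudocount of 5, 9 with the 10 TPM filter, 7 under median of ratios, quantile normalization or GC removal, and 30 at 1.5-fold. They were more than the 14 of the main setting with a pseudocount of 0.1 or without mitochondrially encoded genes, SLC37A3 among those added. At the estimated depth the least-covered member had 38 reads in 1 library, so counting error matters most for low members such as SLC7A2 and SLC9A3. The cause of these shifts was not tested. Of 492 values for 41 members named by rule, 55 moved by more than the spread between the siRNAs and 28 of those 55 came with the GC trend removed. The sign changed in 30 of the 492, 20 of them with the GC trend removed, where the fold had been up to 0.82 in size, and 5 under median of ratios. No fold that reached 2-fold changed sign.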
